A study of Homo sapiens with 6 samples.

Results

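The genes described here are 41 members of the ATF4 response and of amino acid supply, followed in SW-1990 cells after knockdown of PRLR, the prolactin receptor. They were taken by symbol, and each gene is read by its brightest probe set among those annotated with that symbol alone. Of the 41, 39 were measured, out of 19775 genes read in this way. GPT2 and MARS1 had no such probe set and were not analysed here.

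SW-1990 is an established human pancreatic adenocarcinoma line that came from a splenic metastasis. The sh-PRLR cells carried a lentiviral short hairpin RNA (shRNA) against PRLR, and the sh-Ctrl cells a scrambled shRNA. Both had been kept in puromycin at 1 μg/ml for more than 7 days. Each group had 3 Affymetrix arrays, given by the labels as biological replicates, and the labels do not say how many hairpins were used or whether the cells were clones. All values are log2 expression values as deposited, and differences are sh-PRLR minus sh-Ctrl. An error after ± is the SD of a group's 3 arrays. The words "rose" and "fell" are kept for genes with an adjusted p under 0.05 in limma with intensity-dependent, robust variance, adjusted by Benjamini-Hochberg over all 19775 genes.

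ATF4 is a transcription factor whose messenger RNA is translated more when the initiation factor eIF2 is phosphorylated by stress kinases, so its RNA level does not measure its protein level. Paired with C/EBP proteins, it binds composite C/EBP-ATF elements in genes that import amino acids, make them and load them onto tRNA. The same programme holds its own modulators, among them DDIT3 (CHOP), TRIB3 and the phosphatase subunit PPP1R15A. Pancreatic cancer cells are known for a high demand for glutamine, cystine and serine.

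The targeted gene was read by 7 PRLR probe sets, and 7 of them had a lower mean in sh-PRLR. Their average was 4.17 ± 0.22 in sh-PRLR and 5.02 ± 0.22 in sh-Ctrl (n = 3 each). An exact permutation test, two-sided, gave p = 0.1, which is the lowest value possible with 3 arrays a group. PRLR was read near the floor: its probe sets averaged 3.82 to 5.58 over all arrays, and 7 of 7 lay under 5.93, the level below which 40% of genes fall. The brightest PRLR probe set, which stands for the gene in the test, did not pass (-0.23, limma adjusted p = 0.811). In all, 660 genes rose and 854 fell, so that 43.6% of the calls were higher, and 57.6% after centring each array on its median. With limma's default settings 4 genes passed, and 3209 had an unadjusted p under 0.05 (16.2%, against 20.3% in the reported fit). Of the markers of the line's own type, 7 epithelial or duct genes had summed linear levels of 91045 to 93883 in sh-PRLR and 90776 to 96988 in sh-Ctrl, sums that the brightest genes carry. Of these 7, CDH1, which encodes E-cadherin, fell (-0.17, limma adjusted p = 0.0284), and its part in the results below was not tested. Set against the median gene level of 7.23, mean log2 values reached 5.34 among 4 immune markers, 7.27 among 4 endothelial markers and 7.89 among 5 fibroblast markers, and 0 of these 13 passed in limma (1 at an unadjusted p under 0.05, and 1 with the default settings). An 18S ribosomal RNA control probe set read 13.58 to 13.89 in sh-PRLR and 13.10 to 13.62 in sh-Ctrl, and its part in the results below was not tested. The 3′ control probe set of ACTB exceeded its 5′ one by 2.99 to 3.11 in sh-PRLR and 3.05 to 3.36 in sh-Ctrl. For GAPDH this gap was 0.09 to 0.20 in sh-PRLR and 0.19 to 0.28 in sh-Ctrl. The part of these gaps was not tested either. Bulk arrays cannot tell a change in RNA per cell from a change in the mix of cells.

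Rises in sh-PRLR cells were found for 3 of 6 transcription factors, 2 of 4 regulators of the response, 4 of 9 transporters and 1 of 8 tRNA synthetases, and for 0 of 10 biosynthetic enzymes. Of the 39 members 10 rose, 25.6%, against 3.34% of all genes (7.66% in either direction). SLC7A5 alone fell, 2.56% of members against 4.32% of all genes. The rises were those of ATF4, ATF3, DDIT3, TRIB3, PPP1R15A, SLC7A11, SLC3A2, SLC1A5, SLC38A1 and AARS1. The median difference was 0.04 over the members and 0.00 over all genes. The largest estimated change among the members was that of PPP1R15A, 1.71-fold. Members were mostly well-measured genes, with 36 of 39 at or above the median level, and among genes at or above that level 6.43% rose and 8.17% fell. The sh-PRLR and sh-Ctrl arrays did not overlap for 14 members that were higher and 8 that were lower, against 11.7% and 14.1% of all genes (25.8% in either direction). With limma's default settings 0 of 39 members passed, 14 had an unadjusted p under 0.05, and 0.0202% of all genes passed.

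**Figure D1:**
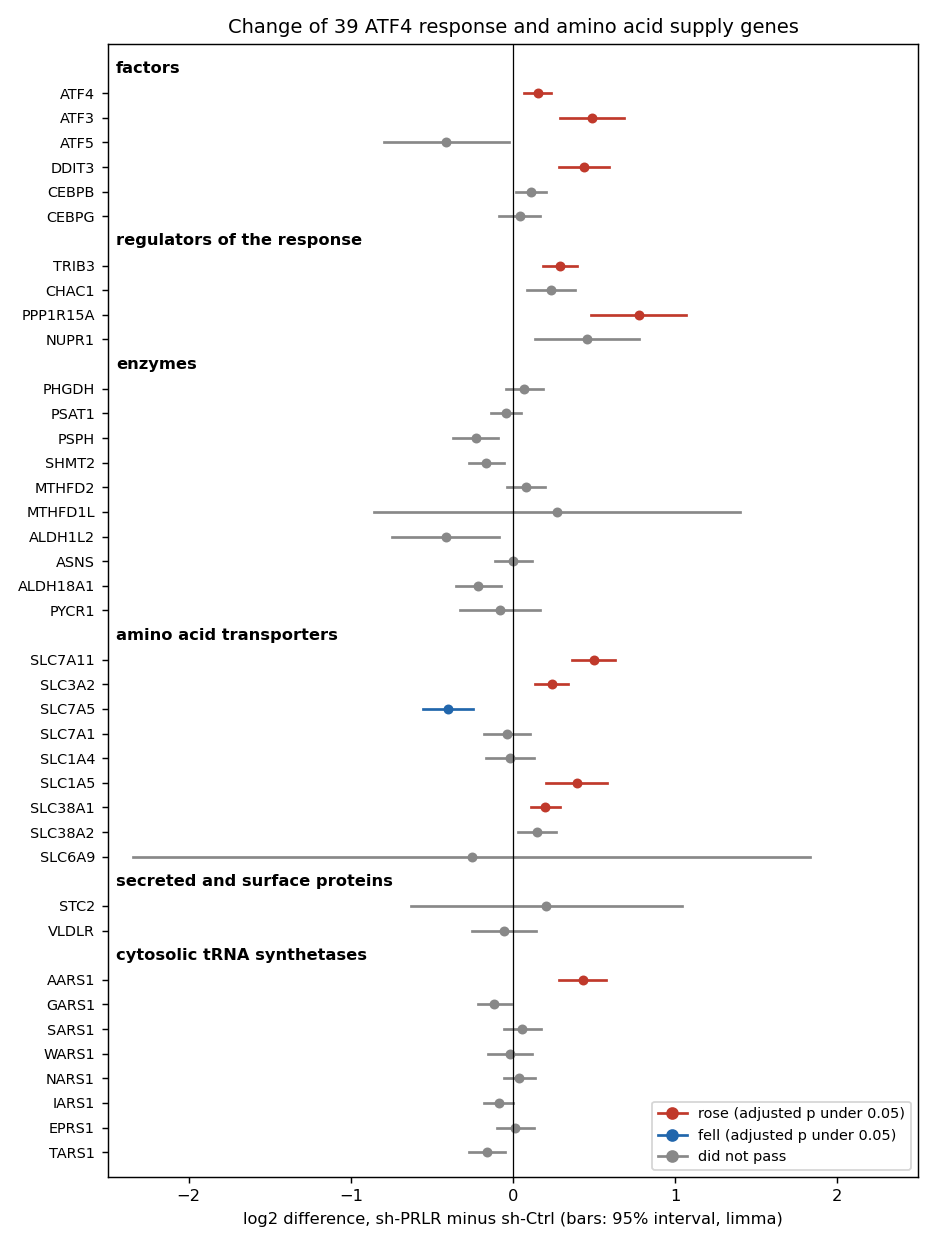
Difference in log2 value (x axis, sh-PRLR minus sh-Ctrl) of the 39 measured members (y axis), grouped by role, with 95% intervals from limma. Red members rose and the blue one, SLC7A5, fell. The 10 enzymes are all grey and lie on both sides of 0, while the 4 regulators of the response all lie above it.

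The sequence before their starts is a further feature of the members, apart from the array values. RefSeq promoter windows, reaching from 250 bases before to 50 bases after a transcription start (GRCh38.p14), were available for 34 members. The core of the C/EBP-ATF element, TGATGNAA on either strand (TTNCATCA on the other), was searched in each. It occurred in the windows of 16 of the 34 members, 47.1%, against 4.46% of the 27305 genes with a window. Counted by window, 18 of 57 held it, against 3.62% of 35116. ATF4 targets are known by such elements, so this share is no independent finding about these cells. The match was present in 5 of 9 members that rose, in 10 of 23 that did not pass and in 0 of the 1 that fell, and MARS1, not measured, held it too.

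The stretches around the match are shown for members that rose and for members that did not pass, since both kinds carry the same letters. Capitals mark the 8 matching bases, and each line is read 5′ to 3′ on the gene's strand.
ATF3, rose, 191 bases before the start, chr1:212565205-212565234 plus strand: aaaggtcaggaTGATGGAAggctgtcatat
SLC1A5, rose, 97 bases before the start, chr19:46784893-46784922 minus strand: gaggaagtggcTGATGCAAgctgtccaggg
SLC38A1, rose, 4 bases before the start, chr12:46266502-46266531 minus strand: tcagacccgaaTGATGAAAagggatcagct
SLC3A2, rose, base 38 of the transcript, chr11:62881725-62881748 plus strand: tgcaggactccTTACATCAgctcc
ASNS, did not pass, 68 bases before the start, chr7:97872458-97872487 minus strand: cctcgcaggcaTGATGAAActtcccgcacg
CEBPG, did not pass, 42 bases before the start, chr19:33374060-33374089 plus strand: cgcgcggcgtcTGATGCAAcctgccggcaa
IARS1, did not pass, 13 bases before the start, chr9:92293692-92293721 minus strand: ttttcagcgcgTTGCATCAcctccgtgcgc

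AARS1, which rose, and CHAC1, which was higher without passing, are shown with the 250 bases before the start, because each holds the match with the same 8 letters, TTGCATCA, at a similar distance, 187 and 209 bases.
AARS1, chr16:70289507-70289756 minus strand: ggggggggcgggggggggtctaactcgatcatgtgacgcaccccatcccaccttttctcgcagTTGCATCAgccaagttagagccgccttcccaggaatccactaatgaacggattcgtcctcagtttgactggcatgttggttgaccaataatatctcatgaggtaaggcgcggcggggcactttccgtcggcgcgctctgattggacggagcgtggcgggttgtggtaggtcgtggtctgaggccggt
CHAC1, chr15:40953221-40953470 plus strand: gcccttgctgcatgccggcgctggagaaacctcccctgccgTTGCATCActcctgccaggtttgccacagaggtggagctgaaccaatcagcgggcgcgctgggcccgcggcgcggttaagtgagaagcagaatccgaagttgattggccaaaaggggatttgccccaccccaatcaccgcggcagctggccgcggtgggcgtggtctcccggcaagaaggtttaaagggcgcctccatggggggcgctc

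A match is a run of letters and not a measured binding site. Windows of ATF4, DDIT3, TRIB3, PPP1R15A and SLC7A5 were searched and held no TGATGNAA. The search cannot see elements beyond 250 bases before or 50 bases after a start, so these genes may still hold one. Of the 10 members that rose, 9 had a window. By role, the match was found in 6 of 9 cytosolic tRNA synthetases, 5 of 8 transporters, 2 of 6 factors, 2 of 6 enzymes and 1 of 3 regulators.

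Among the 6 transcription factors 3 rose and 0 fell. ATF4 itself read 14.56, 14.57 and 14.52 in sh-PRLR, against 14.40, 14.36 and 14.43 in sh-Ctrl. The groups were apart by a small step, 0.15 (SE 0.04, limma adjusted p = 0.0366). Among the 11 members that passed, ATF4 was lost most often, in 10 of 14 other settings, without any 1 of the 3 sh-PRLR arrays or without sh-Ctrl replicate 1 or 2 (limma adjusted p = 0.0677 to 0.173), and also under quantile normalisation (0.068), median centring (0.0992) and the replicate block (0.104). ATF3, a stress-induced factor that ATF4 activates, read 12.35, 11.95 and 12.06 in sh-PRLR, against 11.61, 11.61 and 11.69 in sh-Ctrl. All 3 sh-PRLR arrays lay above all sh-Ctrl arrays, with the highest in sh-PRLR replicate 1, and the difference was 0.49 (SE 0.09, limma adjusted p = 0.00843). A further ATF3 probe set gave 0.61 (limma adjusted p = 0.0166 in the probe-set fit), and a dim one 0.07 (0.969), and the mean of the 3 no longer passed (0.39, limma adjusted p = 0.280).

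DDIT3 encodes CHOP, the factor linked to death under prolonged stress. It read 13.03, 12.90 and 12.83 in sh-PRLR, against 12.37, 12.48 and 12.59 in sh-Ctrl, a difference of 0.44 (SE 0.07, limma adjusted p = 0.00414). The lowest sh-PRLR array was above the highest sh-Ctrl array. DDIT3 was read by 1 probe set, and the annotated spans of DDIT3 and MARS1 on chromosome 12 overlap by 65 bases. The C/EBP partners of ATF4 did not pass. CEBPB read 13.87, 13.87 and 13.82 in sh-PRLR, against 13.71, 13.74 and 13.78 in sh-Ctrl, without overlap but without passing (0.11, limma adjusted p = 0.144). CEBPG differed by 0.04 (95% interval -0.09 to 0.17), and its second probe set by 0.24 (limma adjusted p = 0.0638 in the probe-set fit). ATF5, a related factor that is also controlled by translation, had the opposite sign. Its values were 8.10, 7.57 and 7.72 in sh-PRLR, against 7.999, 8.22 and 8.40 in sh-Ctrl (-0.41, SE 0.17, limma adjusted p = 0.210), and the groups overlapped through sh-PRLR replicate 1. Of the 4 ATF5 probe sets 3 had a negative sign.

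The 4 regulators downstream of ATF4 were all higher in sh-PRLR, and 2 of them rose. PPP1R15A, or GADD34, recruits the phosphatase that removes the phosphate from eIF2 and so ends the response. It read 10.53, 10.09 and 10.14 in sh-PRLR, against 9.25, 9.55 and 9.63 in sh-Ctrl. This was the largest change of the members, 0.78 (SE 0.13, limma adjusted p = 0.00617), with the extreme values of each group on its replicate 1. A second PPP1R15A probe set gave 0.76 (limma adjusted p = 0.0117 in the probe-set fit). TRIB3, a pseudokinase that restrains ATF4 and AKT, read 13.85, 13.80 and 13.70 in sh-PRLR, against 13.49, 13.49 and 13.51 in sh-Ctrl, a difference of 0.29 (SE 0.05, limma adjusted p = 0.00489). Its second probe set was higher by 0.34 and did not pass (limma adjusted p = 0.0585 in the probe-set fit). The mean of its probe sets passed (0.32, limma adjusted p = 0.0151).

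CHAC1, which degrades glutathione, read 11.16, 11.20 and 11.04 in sh-PRLR, against 10.82, 10.92 and 10.96 in sh-Ctrl. The groups did not overlap, but the difference of 0.23 missed the threshold (SE 0.07, limma adjusted p = 0.0626). NUPR1, a stress-induced chromatin protein, read 8.82, 8.87 and 8.48 in sh-PRLR, against 8.09, 8.45 and 8.26 in sh-Ctrl, also without overlap and without passing (0.45, SE 0.14, limma adjusted p = 0.0911). With fewer genes tested, after leaving out the dimmest 40%, both passed, CHAC1 at 0.032 and NUPR1 at 0.0488.

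**Figure D2:**
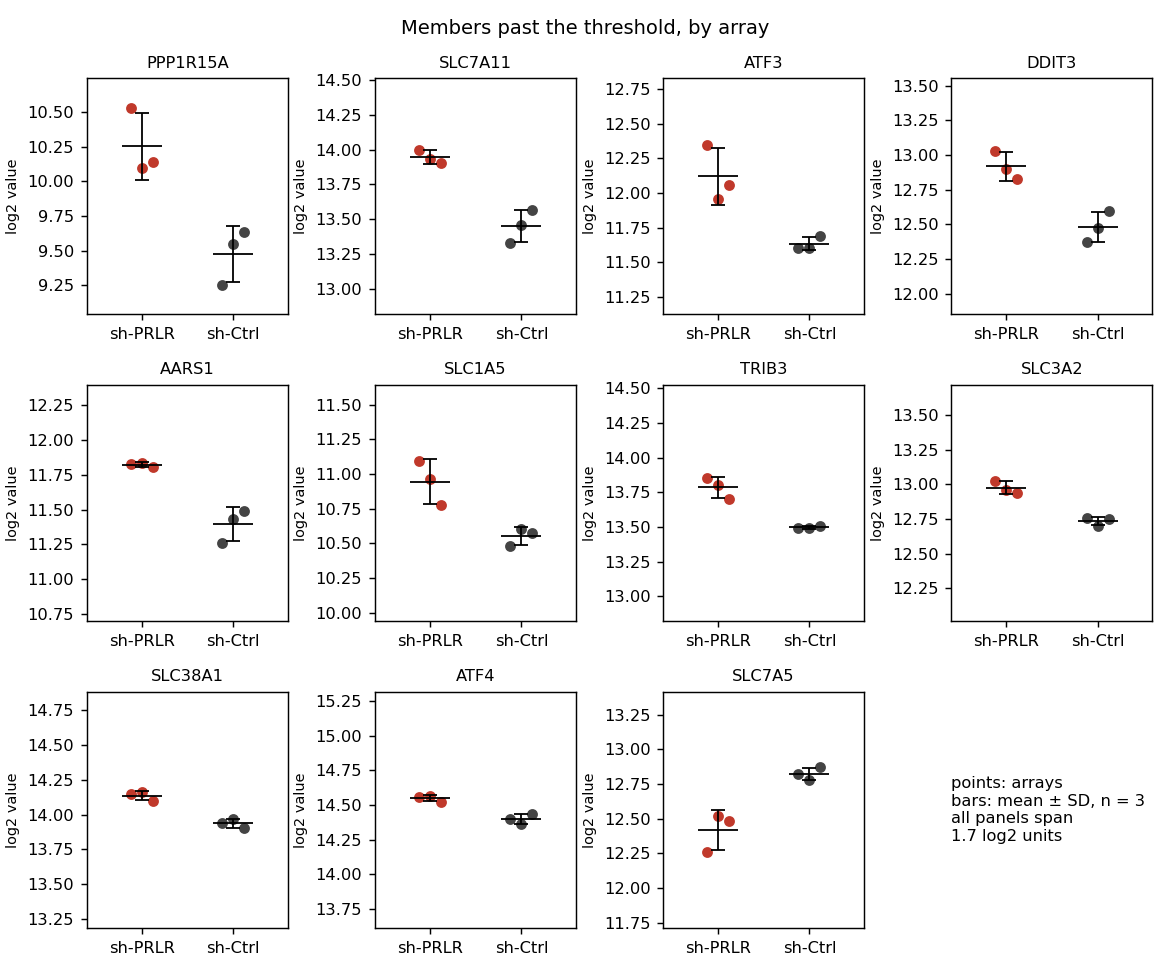
Deposited log2 values (y axis) of the 11 members that passed, in the 3 sh-PRLR arrays (left, red) and the 3 sh-Ctrl arrays (right, dark), with mean ± SD. Every panel spans 1.7 log2 units. The groups do not overlap in any panel, and the steps run from 0.78 for PPP1R15A to 0.15 for ATF4, with SLC7A5 as the 1 member lower in sh-PRLR.

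Of the 9 transporters 4 rose and 1 fell. SLC7A11 is the light chain of the cystine and glutamate exchanger, which brings in cystine for glutathione. It read 13.9999, 13.94 and 13.90 in sh-PRLR, against 13.33, 13.46 and 13.56 in sh-Ctrl. That is a difference of 0.50 (SE 0.06, limma adjusted p = 9.38e-04), and 3 of 3 SLC7A11 probe sets passed, at 0.50, 0.39 and 0.57. SLC7A5, or LAT1, is the light chain that imports leucine and other large neutral amino acids. It read 12.26, 12.52 and 12.49 in sh-PRLR, against 12.82, 12.78 and 12.87 in sh-Ctrl, a difference of -0.40 (SE 0.07, limma adjusted p = 0.00622). The lowest sh-PRLR array was replicate 1, and SLC7A5 was read by 1 probe set.

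Both light chains need the same heavy chain, SLC3A2 (4F2hc or CD98), to reach the membrane. SLC3A2 read 13.03, 12.96 and 12.94 in sh-PRLR, against 12.76, 12.70 and 12.75 in sh-Ctrl, a difference of 0.24 (SE 0.05, limma adjusted p = 0.0111), which was lost without sh-Ctrl replicate 2 (0.0683). The log2 ratio of SLC7A11 to SLC7A5 signal was 1.74, 1.42 and 1.42 in sh-PRLR, against 0.51, 0.68 and 0.69 in sh-Ctrl. The ratio was thus higher by 0.90 in sh-PRLR, where the difference alone is meant, since signals of 2 probe sets cannot be set against each other. The pair was chosen after the values were seen, so this is a description without a test.

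SLC1A5 (ASCT2), an exchanger of glutamine and other neutral amino acids, read 11.10, 10.97 and 10.78 in sh-PRLR, against 10.48, 10.60 and 10.57 in sh-Ctrl (0.39, SE 0.08, limma adjusted p = 0.0184). Its call was lost without sh-PRLR replicate 2 or without any 1 of the 3 sh-Ctrl arrays (limma adjusted p = 0.0574 to 0.0798). SLC38A1 (SNAT1), a sodium-coupled importer of glutamine and alanine, read 14.15, 14.16 and 14.10 in sh-PRLR, against 13.94, 13.97 and 13.90 in sh-Ctrl (0.20, SE 0.04, limma adjusted p = 0.0141). It no longer passed without sh-PRLR replicate 2 (0.068) or sh-Ctrl replicate 2 (0.0519), and its 4 probe sets were all higher in sh-PRLR, though their mean did not pass (0.37, limma adjusted p = 0.554). SLC38A2 (SNAT2), the amino acid-regulated relative, read 14.30, 14.19 and 14.16 in sh-PRLR, against 13.99, 14.07 and 14.15 in sh-Ctrl, and did not pass on its brightest probe set (0.15, limma adjusted p = 0.132). The other 2 SLC38A2 probe sets did pass, at 0.22 and 0.20 (limma adjusted p = 0.026 and 0.0335 in the probe-set fit).

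Of the remaining carriers, SLC7A1 (CAT1), an importer of arginine and lysine, differed by -0.04 (95% interval -0.18 to 0.10) and SLC1A4 (ASCT1), which carries serine and alanine, by -0.02 (-0.16 to 0.13). SLC6A9, the glycine transporter, was near the bottom of the scale, 1.83, 5.05 and 3.46 in sh-PRLR and 3.25, 4.54 and 3.33 in sh-Ctrl, and its interval of -2.34 to 1.83 carries little information. STC2, a secreted glycoprotein, and VLDLR, a lipoprotein receptor, are targets outside metabolism and differed by 0.21 (-0.63 to 1.04) and -0.06 (-0.26 to 0.14).

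Enzymes that make amino acids and folate units showed 0 rises and 0 falls among 10 measured in limma, with 4 at an unadjusted p under 0.05, all 4 lower in sh-PRLR, and 2 by limma's default settings. Over all genes 20.3% had such a p, and 11.4% had it and were lower. Without the dimmest 40% of genes, PSPH (0.0257), SHMT2 (0.04) and ALDH18A1 (0.0364) passed as lower in limma, and under quantile normalisation PSPH (0.038) and SHMT2 (0.0359) did. ASNS, asparagine synthetase, is a standard readout of ATF4. It read 14.83, 14.75 and 14.69 in sh-PRLR, against 14.68, 14.74 and 14.85 in sh-Ctrl. The groups overlapped fully and the difference was 0.00, with a 95% interval of -0.11 to 0.12. On this probe set, at percentile 99.7 of gene levels, that interval leaves out a change of the size of DDIT3. A second, dimmer ASNS probe set differed by -0.09, with a wider interval of -0.57 to 0.38. PSAT1 and PHGDH, enzymes of serine synthesis, differed by -0.04 (-0.13 to 0.05) and 0.07 (-0.04 to 0.18). PSPH, the last enzyme of that route, read 12.27, 12.23 and 12.45 in sh-PRLR, against 12.59, 12.50 and 12.55 in sh-Ctrl. Its difference of -0.23 just missed the threshold (SE 0.06, limma adjusted p = 0.0516), and it passed without sh-PRLR replicate 3 (-0.30, limma adjusted p = 0.0199).

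In the mitochondrial folate branch, SHMT2, which turns serine into glycine, read 12.88, 12.91 and 12.86 in sh-PRLR, against 12.98, 13.11 and 13.06 in sh-Ctrl. It was lower without overlap and without passing (-0.17, SE 0.05, limma adjusted p = 0.0679). MTHFD2, the next enzyme, differed by 0.08 (-0.03 to 0.20). ALDH1L2, which oxidises formyl-folate, was at -0.41 (SE 0.15, limma adjusted p = 0.136), but 1 of its 3 probe sets was higher in sh-PRLR. MTHFD1L lay below the median gene level, and its interval ran from -0.86 to 1.40. ALDH18A1, which starts proline synthesis from glutamate, read 11.72, 11.57 and 11.53 in sh-PRLR, against 11.80, 11.78 and 11.88 in sh-Ctrl (-0.21, SE 0.06, limma adjusted p = 0.0704), and it passed without sh-PRLR replicate 1 (-0.27, limma adjusted p = 0.022). PYCR1, which completes proline, differed by -0.08 (-0.33 to 0.17).

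Cytosolic tRNA synthetases, which join each amino acid to its tRNA, showed 1 rise among 8 measured. AARS1, for alanine, read 11.83, 11.83 and 11.80 in sh-PRLR, against 11.26, 11.43 and 11.49 in sh-Ctrl. The sh-PRLR arrays were almost equal and all above sh-Ctrl, a difference of 0.43 (SE 0.07, limma adjusted p = 0.00357) on the 1 AARS1 probe set. The other 7 lay between -0.16 and 0.06, and their 95% intervals together reached from -0.27 to 0.17. GARS1 (glycine, -0.11), IARS1 (isoleucine, -0.09) and TARS1 (threonine, -0.16) were lower without overlap and did not pass, with limma adjusted p = 0.195, 0.250 and 0.0862. SARS1 (serine, 0.06), NARS1 (asparagine, 0.04), EPRS1 (glutamate and proline, 0.01) and WARS1 (tryptophan, -0.02) overlapped between groups. The interval of AARS1, 0.28 to 0.57, lay above those of the other 7 on their brightest probe sets. A second, dimmer TARS1 probe set was higher in sh-PRLR without overlap and did not pass (0.43, limma adjusted p = 0.231 in the probe-set fit).

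**Figure D3:**
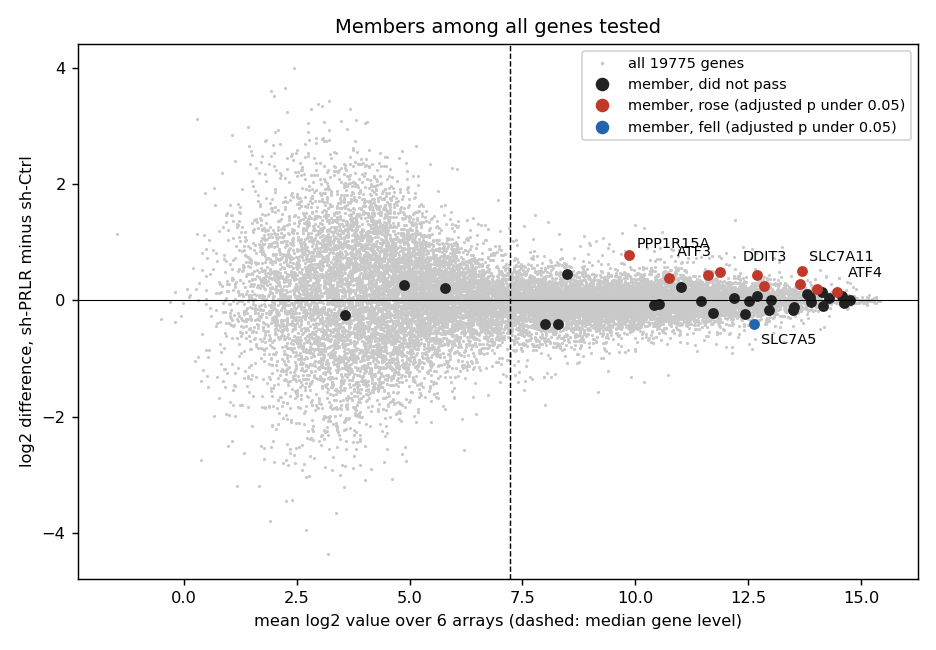
Difference in log2 value (y axis, sh-PRLR minus sh-Ctrl) against the mean log2 value over 6 arrays (x axis) for 19775 genes (grey) and the 39 members (large points). Most members lie right of the dashed median gene level of 7.23, where genes scatter little. The members that passed lie above 0, with SLC7A5 alone below it, and not all of them are at the edge of the grey band. ATF4 (0.15 at a level of 14.47) lies nearer to 0 than GDF15 (0.40 at 14.23), a gene outside the members.

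Genes around the members were taken from lists chosen by function, with earlier results of these data known. Over all genes 3.34% rose and 4.32% fell, against 6.43% and 8.17% of genes at or above the median level. Upstream of ATF4, 0 of 17 eIF2 kinase and eIF2 machinery genes rose and 1 fell, 5.88%, which is near the share of all genes. The 1 was EIF2B1, a subunit of the eIF2 exchange factor (-0.32, limma adjusted p = 0.0245, lost in 7 of 14 other settings). Of 18 further ATF4 target genes 6 rose and 0 fell, 33.3% against 3.34% of all genes and 6.43% of genes at or above the median level. Of the 18, 3 lay below that level. DDIT4, an inhibitor of mTORC1, averaged 14.16 ± 0.04 in sh-PRLR and 13.80 ± 0.01 in sh-Ctrl (0.36, limma adjusted p = 5.61e-04). TNFRSF10B, a death receptor that CHOP induces, averaged 13.44 ± 0.12 in sh-PRLR and 12.95 ± 0.05 in sh-Ctrl (0.49, limma adjusted p = 0.00120), but 0.00 when its probe sets were averaged. GDF15, a stress cytokine, averaged 14.43 ± 0.09 in sh-PRLR and 14.03 ± 0.05 in sh-Ctrl (0.40, limma adjusted p = 0.00137), and KLHL24 rose by 0.46 (limma adjusted p = 0.0136), though not without sh-Ctrl replicate 1 (0.0502) or 2 (0.0622). GDF15 was lost in 3 of 14 other settings (limma adjusted p up to 0.669), among them the average over its probe sets (0.26, limma adjusted p = 0.373). DDIT4, GDF15 and TNFRSF10B also answer to other stress pathways.

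Of 12 other serine, glycine and folate enzymes 1 rose and 5 fell, 8.33% and 41.7%, against 3.34% and 4.32% of all genes. MTHFD1, the cytosolic folate enzyme, averaged 12.29 ± 0.02 in sh-PRLR and 12.55 ± 0.02 in sh-Ctrl (-0.26, limma adjusted p = 0.00612). TYMS, thymidylate synthase, averaged 14.15 ± 0.04 in sh-PRLR and 14.42 ± 0.03 in sh-Ctrl (-0.26, limma adjusted p = 0.00339). Both missed the threshold after median centring, at 0.0708 and 0.0518. DLD, a subunit of glycine cleavage and of pyruvate dehydrogenase, fell by 0.22 (limma adjusted p = 0.0171, lost in 8 of 14 other settings). ALDH1L1, the cytosolic counterpart of ALDH1L2, averaged 10.67 ± 0.07 in sh-PRLR and 9.98 ± 0.08 in sh-Ctrl, a rise of 0.69 (limma adjusted p = 4.75e-04). Averaged over their probe sets, ALDH1L1 (0.37, limma adjusted p = 0.204) and MTHFD1 (-0.18, 0.566) did not pass.

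Of 14 other enzymes of glutamate, aspartate and proline 4 rose and 1 fell, 28.6% and 7.14%, against 3.34% and 4.32% of all genes. ARG2, mitochondrial arginase, rose by 0.48 (limma adjusted p = 0.00145) and GLUL, glutamine synthetase, by 0.28 (0.0101). Without _x_at and _s_at probe sets, whose probes can match several transcripts, ARG2 was at 0.26 (limma adjusted p = 0.340) and GLUL at 0.78 (0.754). GLUD1, glutamate dehydrogenase, rose by 0.21 (limma adjusted p = 0.0237) and GOT1, the cytosolic aspartate transaminase, by 0.24 (0.0411), and each of these 2 was lost in 8 of 14 other settings. Among 19 other amino acid transporters 0 rose and 2 fell, 10.5% against 4.32% of all genes. The 2 were SLC7A8, a relative of SLC7A5 that also pairs with SLC3A2 (-0.29, limma adjusted p = 0.0363), and SLC1A1, a glutamate carrier (-0.23, 0.0357). SLC7A8 was lost in 9 of 14 other settings and turned to 0.08 in another, and SLC1A1 was lost in 10.

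The other 10 cytosolic synthetase and scaffold genes showed 0 rises and 0 falls in limma, with 3 at an unadjusted p under 0.05, against 20.3% of all genes, and differences from -0.23 to 0.14. Of 15 mitochondrial tRNA synthetases 1 rose and 1 fell, 6.67% each, against 3.34% and 4.32% of all genes. LARS2 fell by 0.39 (limma adjusted p = 0.0150, lost in 7 of 14 other settings) and RARS2 rose by 0.21 (0.0467, lost in 11). With limma's default settings 0 genes of these 7 lists passed.

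**Figure D4:**
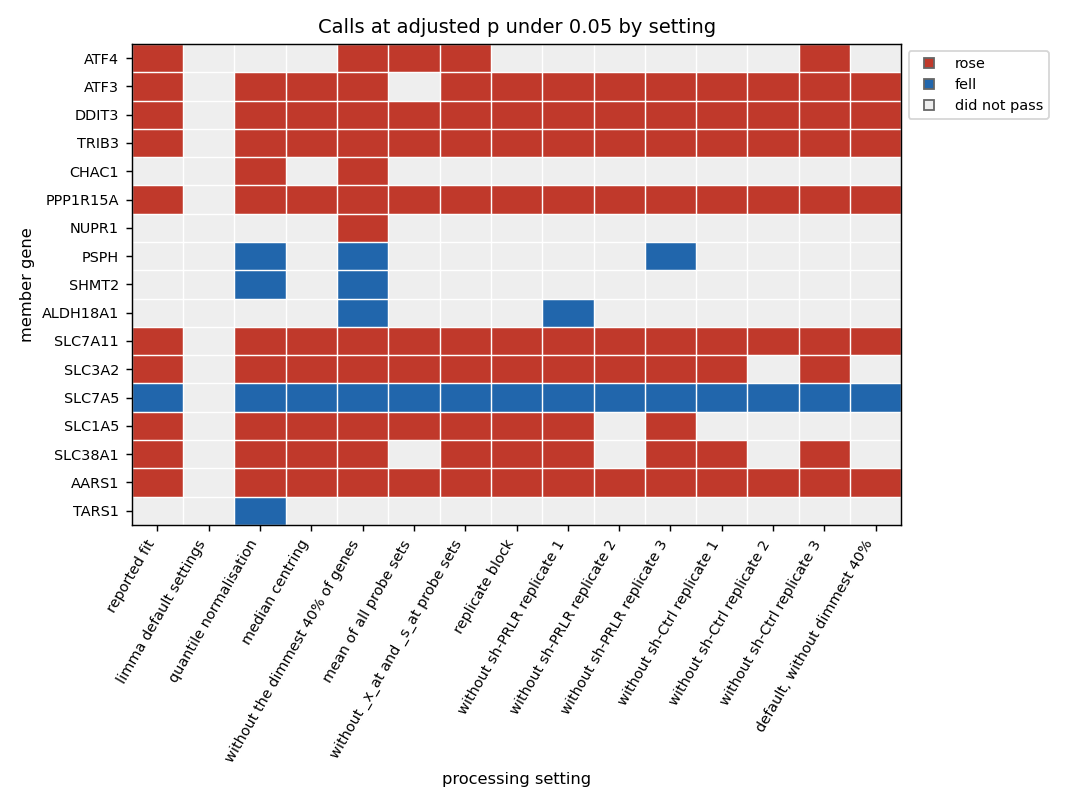
Calls at an adjusted p under 0.05 for the 17 members that passed under at least 1 setting (y axis, member genes) in the reported fit and 14 other settings (x axis), red for rises and blue for falls. DDIT3, TRIB3, PPP1R15A, SLC7A11, SLC7A5 and AARS1 passed in 13 of 14, the exception being limma's default settings over all genes, where no member passed.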

How the data were processed

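Total RNA of 6 samples was labelled with biotin and hybridised to Affymetrix arrays, per the labels' protocols, which name several amplification kits and do not say which of them served these samples. Each deposited value is the log2 expression of a probe set on 1 array. Per the submitters' processing notes, MAS5, RMA and affy were among the tools, given without role or version. In the deposited log2 values the linear mean with 2% trimmed at each end was 500 on all 6 arrays, so they were taken as globally scaled and not normalised again. They ran from -4.3 to 15.53, and no detection calls were used.

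Of 54675 probe sets, 41091 had 1 gene symbol. The test was limma 3.58.1 under R 4.3.3 (eBayes with trend and robust after lmFit), two-sided, adjusted over 19775 genes at 0.05, without a block. Single probe sets were adjusted over 41091. All 41 members are named, and of the other lists up to 4 genes with the smallest p among those that passed, besides PRLR. The members, lists, variance model and rule for named genes were chosen with earlier results of these data known. In 10 simulations of this comparison with 19775 genes and 200 changed, all above the median level, the fit found 87.9% of log2 changes of 1 and 49.3% of log2 changes of 0.5, with 2.76% of calls false. The default settings found 63.1% and 4.0%, with 6.55% of calls false. The simulated noise was independent between genes and held no array effects, so these shares need not hold for the reported calls. Promoter sequences came from RefSeq (GRCh38.p14). Figures used Python 3.11.15 and matplotlib 3.10.9. The number of arrays limits the precision.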

Additional observations from a re-analysis of the deposited data

How the results depend on the processing

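With limma's default settings 4 genes, 0 rising and 0 falling members passed over all genes, and 1144 genes once the dimmest 40% were left out, so the count moved with both the variance model and the filter, and a limit of 2-fold left 97 genes, 0 rising and 0 falling members. Genes passing numbered 990 with median centring and 609 with the mean of all probe sets, and 665 to 1322 when 1 array was left out, where 6 to 9 members rose and 1 to 2 fell. Falling members numbered 4 under quantile normalisation and 4 without the dimmest 40% of genes, and rising members 6 with default settings after that filter, a setting chosen after seeing the data. Replicate numbers are shared between groups, but deviations of same-numbered arrays correlated at -0.0243 to 0.0044, so they were not treated as pairs. The replicate block kept 1090 genes, 9 rising members and 1 falling member, losing ATF4 (limma adjusted p = 0.104). Of the 14 settings, 4 leave every difference as it is by construction. Over the other 10, 11 of 11 members that passed kept their direction, and 13 of the 28 that did not pass changed sign in at least 1. Leaving out 1 array cannot reverse a gene whose groups do not overlap, as in all 11 that passed. Those settings are therefore no check on the direction of these 11. ATF4, DDIT3, SLC3A2, SLC7A5, SLC1A5 and AARS1 have 1 probe set, so averaging or leaving out _x_at and _s_at probe sets cannot move their differences. All probe sets of ATF3, TRIB3, PPP1R15A, SLC7A11 and SLC38A1 had the same sign, so neither setting could reverse them. Median centring shifts every gene by the same small step (ATF4 from 0.15 to 0.20), less than any change that passed. ASNS was -0.0235 under quantile normalisation, -0.0449 with averaged probe sets and -0.0911 without _x_at and _s_at probe sets. Median centring gave PSAT1 0.00547, SLC7A1 0.0108, SLC1A4 0.0291 and WARS1 0.0276. Averaging probe sets gave MTHFD1L -0.17, ALDH1L2 0.10, SLC7A1 0.30 and TARS1 0.14. Without _x_at and _s_at probe sets SLC7A1 was 0.0107 and SLC7A8 0.0822. With 1 array left out, ASNS ran between -0.0380 and 0.0479, PYCR1 between -0.16 and 0.0468, SLC7A1 between -0.0931 and 0.0224, SLC1A4 between -0.0530 and 0.0529, SLC6A9 between -1.06 and 0.55, STC2 between -0.0236 and 0.41, VLDLR between -0.12 and 0.0160, WARS1 between -0.0571 and 0.0373, and EPRS1 between -0.0250 and 0.0520. The cause of these changes was not tested. Dim members (SLC6A9, MTHFD1L, STC2) had too wide a spread to show a change of the size seen elsewhere.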
